A study of Mus musculus with 12 samples.

Results

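Transcripts that mark the dendritic cell subsets were followed in mouse spleen: Itgax, Flt3 and Zbtb46 for conventional dendritic cells as a whole, Xcr1, Clec9a and Batf3 for their type 1 subset, Cd209a and Clec10a for type 2 or monocyte-derived cells, Siglech for plasmacytoid dendritic cells, and Irf8 for type 1 and plasmacytoid cells together. Every probe set whose single annotated gene symbol is 1 of these 10 was taken. This gave 13 probe sets of 9 genes out of 45037 on the array (4 for Zbtb46, 2 for Irf8, 1 for each other gene), while Clec9a was named by none and was not analysed here. All 13 passed the filter on low signal, which asked for a scaled signal no lower than 100 on 3 or more of the 12 arrays. For Clec10a only 8 of the 12 arrays reached that level, and for the Zbtb46 probe set 1453856_at 1 array lay below it.

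Spleens were taken from BALB/c mice that lack Il1rn (ko) at 4 months and at 1 month, and from wild-type BALB/c mice (wt) at 4 months and at 1 month, with 3 mice per group and 1 array per mouse. Il1rn encodes the IL-1 receptor antagonist, a secreted protein that keeps IL-1 from its receptor, and the deficiency is labelled as one of the mouse, not of dendritic cells alone. RNA came from whole spleen, so fewer cells of a type and less RNA per cell cannot be told apart in any value below. Mice without Il1rn on this background develop arthritis, and the study asked which genes go with its phases.

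Dendritic cells take up antigen and present it to T cells. Type 1 cells depend on the transcription factors Irf8 and Batf3 and carry the chemokine receptor Xcr1, through which they meet CD8 T cells. Type 2 cells mainly prime CD4 T cells, and plasmacytoid cells are a source of type I interferon. Flt3 is the receptor for the growth factor that drives their development, Itgax encodes the integrin chain CD11c, and Zbtb46 is a transcription factor of conventional cells. Several of these genes are not exclusive in spleen: Irf8 is strongly expressed in B cells, and CD11c is found on some macrophages and NK cells.

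Several facts of the arrays bear on these values. Il1rn itself was at 40.8, 10.1 and 14.8 by 1451798_at in ko spleens at 4 months, against 188, 161 and 278 in wt, and at 23.6, 40.6 and 5.64 in ko against 163, 143 and 120.5 in wt at 1 month. It was called lower in ko at each age (-2.17 log2 units at 4 months, limma adjusted p = 0.0034, and -1.70 at 1 month, limma adjusted p = 0.0403), while its other 2 probe sets were lower without a call at either age. The highest deposited signal was under 40000 on 6 arrays (the low set: all 3 ko at 1 month, ko replicate 2 at 4 months, replicate 3 of wt at each age) and over 50000 on the other 6 (the high set). At 1 month the ko mice thus lie in 1 set, which also holds 1 wt array of that age. Replicate 2 of wt at 4 months carried pancreas transcript, with a summed signal of 136336 for 7 pancreas genes, against 1691 and 1962 on the other wt arrays of that age. Neutrophil genes (9 of 9 measured) were higher in ko, with summed signals of 51651 to 68824 in ko against 9653 to 14565 in wt at 4 months, and 125609 to 155731 in ko against 43788 to 53762 in wt at 1 month.

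The members with the widest genotype differences are shown with the 250 bases before their start, from RefSeq on GRCm38.p6, 5′ to 3′ on the gene's own strand. Promoters were found for 9 of the 10 members, the exception being Clec10a. They were searched on both strands for GGAAGT (an ETS core, the kind of site the factor PU.1 uses), TGANTCA (AP-1, the kind of site Batf3 uses with Jun proteins), CAGGTG (an E-box, the kind of site Tcf4 uses), and the ETS-IRF composite element and the paired interferon response element, the kind Irf8 uses with partners. GGAAGT can lie within the composite element. Capitals mark the matches.
Cd209a promoter, chr8:3748985-3749234, minus strand: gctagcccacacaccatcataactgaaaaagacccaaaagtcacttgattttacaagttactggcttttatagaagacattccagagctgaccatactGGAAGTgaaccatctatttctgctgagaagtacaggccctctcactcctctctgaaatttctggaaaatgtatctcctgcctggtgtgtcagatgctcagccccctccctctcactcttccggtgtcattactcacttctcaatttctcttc
Siglech promoter, chr7:55767934-55768183, plus strand: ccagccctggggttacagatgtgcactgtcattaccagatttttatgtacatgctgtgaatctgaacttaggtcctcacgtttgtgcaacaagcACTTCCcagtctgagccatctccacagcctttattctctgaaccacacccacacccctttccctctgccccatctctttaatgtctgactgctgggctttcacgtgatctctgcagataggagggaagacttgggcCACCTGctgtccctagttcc
Xcr1 promoter, chr9:123862030-123862279, minus strand: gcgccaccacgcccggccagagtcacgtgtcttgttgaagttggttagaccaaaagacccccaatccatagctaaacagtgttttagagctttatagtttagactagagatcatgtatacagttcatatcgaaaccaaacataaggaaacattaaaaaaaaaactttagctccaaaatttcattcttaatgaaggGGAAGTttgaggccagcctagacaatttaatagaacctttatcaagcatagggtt
Batf3 promoter, chr1:191098164-191098413, plus strand: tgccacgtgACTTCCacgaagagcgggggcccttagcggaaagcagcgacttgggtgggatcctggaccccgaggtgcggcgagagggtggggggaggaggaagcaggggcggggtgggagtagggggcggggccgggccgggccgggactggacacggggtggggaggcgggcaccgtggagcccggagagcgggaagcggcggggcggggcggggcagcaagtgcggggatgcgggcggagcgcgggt
Each of these 4 promoters held GGAAGT once, on the plus strand of the printed letters in Cd209a and Xcr1 and on the reverse strand in Siglech and Batf3. Siglech also held CAGGTG, 20 to 15 bases before its start. GGAAGT was in 19.7% of 32851 mouse promoters of the same length and CAGGTG in 17.2%. Among the other members, Itgax held GGAAGT 2 times and TGANTCA once, Flt3 held GGAAGT, and Zbtb46 held TGANTCA and CAGGTG. Irf8 has a pair of promoters in this table, of which the second held CAGGTG, and the promoter of Clec9a held none of the motifs. TGANTCA was in 6.75% of all promoters. The composite element, found in 2.3% of all promoters, and the paired interferon response element, found in 2.98%, were in none of the members' promoters searched. These are matches of letters, with no binding measured.

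Cd209a and Siglech had lower signals in ko spleens than in wt spleens at both ages. Taken over both ages, Cd209a was 0.68-fold (log2 difference -0.57, SE 0.14, limma adjusted p = 0.0325) and was the single member called, which means an adjusted p under 0.05 over all 27041 probe sets tested. Siglech missed that threshold at 0.72-fold (-0.47, SE 0.13, limma adjusted p = 0.0516). This is 1 of 13 member probe sets called, beside 5.39% of all tested probe sets, and 1 of 13 called lower, beside 2.56%. The members' median log2 difference over both ages was -0.01, beside -0.02 for all tested.

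Cd209a encodes a C-type lectin related to human DC-SIGN. Its signal was 544, 548 and 503 in ko spleens at 4 months, against 866, 644 and 1001 in wt spleens of that age. At 1 month it was 394, 366 and 253 in ko, against 535, 563 and 397 in wt. No ko array reached the lowest wt array of its age, though at 1 month the gap was that of 394 in ko to 397 in wt. At 4 months ko stood at -0.60 against wt (log2, SE 0.20, limma adjusted p = 0.137). At 1 month the log2 value was -0.53 (SE 0.20, limma adjusted p = 0.22), so neither age alone was called. Within the low array set the difference was -0.83 at 4 months (1 ko against 1 wt array) and -0.24 at 1 month (3 against 1), and within the high set it was -0.49 at 4 months (2 against 2). The call over both ages was narrow: it was lost with the array set as a block (limma adjusted p = 0.0546) and without any 1 of 9 arrays, namely ko replicates 2 and 3 at 1 month, each ko replicate at 4 months, wt replicates 1 and 2 at 1 month and wt replicates 1 and 3 at 4 months (limma adjusted p = 0.0542 to 0.0984). It held without wt replicate 3 at 1 month (-0.64, limma adjusted p = 0.0128) and without the array with pancreas transcript (-0.65, limma adjusted p = 0.0137).

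Siglech encodes a sialic acid binding receptor found mainly on plasmacytoid dendritic cells of the mouse. It was at 326, 327 and 331 in ko spleens at 4 months, against 506, 364 and 532 in wt spleens. At 1 month it was at 165, 189.6 and 179 in ko, against 324, 228 and 241 in wt. No 2 of the 4 groups overlapped, in the order wt at 4 months, ko at 4 months, wt at 1 month and ko at 1 month, and the 3 ko arrays at 4 months spanned only 326 to 331. At 4 months ko stood at -0.45 against wt (log2, SE 0.19, limma adjusted p = 0.248). The log2 value at 1 month was -0.49 (SE 0.19, limma adjusted p = 0.232), with a difference between the ages of 0.03 (SE 0.27). Over both ages Siglech was called without wt replicate 2 at 4 months (-0.55, limma adjusted p = 0.025) and without wt replicate 3 at 1 month (-0.50, limma adjusted p = 0.037), but without any other single array it was not, with values of -0.51 to -0.40 and limma adjusted p of 0.0758 to 0.116. It was called in 3 of the 22 settings tried. Within the low array set it was -0.65 at 4 months and -0.38 at 1 month, and within the high set -0.36 at 4 months.

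Markers of other cells of the marginal zone and follicles were also lower in ko, mainly at 1 month, and their part in these differences was not tested. The summed signal of 3 marginal zone macrophage genes was 2823 to 3044 in ko against 3824 to 5173 in wt at 4 months, and 605 to 1309 in ko against 2214 to 2775 in wt at 1 month. Of 8 measured B cell genes it was 43527 to 55483 in ko against 52358 to 62256 in wt at 4 months, and 23680.2 to 27409.9 in ko against 33320.4 to 35768 in wt at 1 month. Every gene of both lists reached a signal of 100 on some array, though Siglec1 of the marginal zone list did not pass the filter. At 4 months 0 of 4 tested marginal zone probe sets (median -0.17) and 0 of 11 B cell ones (median -0.24) were called, beside 2.3% of all tested. At 1 month 2 of 4 (median -1.07) and 1 of 11 (median -0.47) were called lower, beside 0.444% of all tested called. Over both ages 2 of 4 (median -0.59) and 3 of 11 (median -0.30) were called lower, beside 2.56% of all tested.

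**Figure D1:**
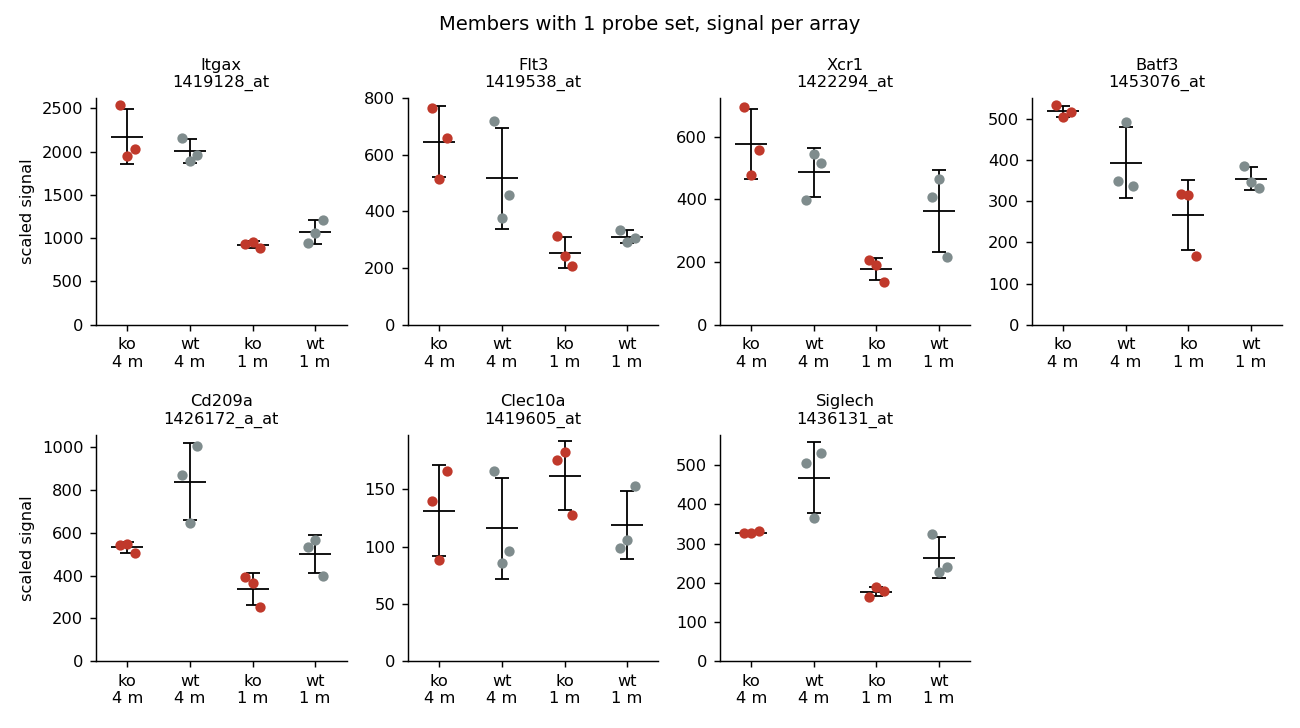
Scaled signal (linear axis from 0) of the 7 members with 1 probe set on each array, ko in red and wt in grey, at 4 months (4 m) and 1 month (1 m). Horizontal marks are means and bars are SD over 3 mice. Cd209a and Siglech ko points lie below the wt points at both ages, and Xcr1 and Batf3 ko points lie below wt at 1 month only, with Batf3 above wt at 4 months.

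The type 1 markers Xcr1 and Batf3 were lower in ko spleens than in wt at 1 month and higher at 4 months, without a call at either age. At 4 months 0 of the 13 member probe sets were called, beside 2.3% of all tested, with 2 at an unadjusted p under 0.05, beside 15.7%, and 3 of the 13 had no overlap between ko and wt, beside 22.3% of all tested. At 1 month 0 of 13 were called, beside 0.444%, with 3 at an unadjusted p under 0.05, beside 15.8%, and 4 had no overlap, beside 19.9%. The median log2 difference of the members was 0.15 at 4 months, beside -0.01 for all tested, and -0.07 at 1 month, beside -0.04.

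Xcr1 was at 696, 477 and 558 in ko spleens at 4 months, against 398, 545 and 517 in wt spleens, and the groups overlapped. At 1 month it was at 207, 189 and 138 in ko, against 409, 466 and 215 in wt, so ko lay below wt, with the lowest wt array close to the highest ko array. That lowest wt array, replicate 3, is the one in the low set. At 1 month ko was 0.55-fold (log2 -0.87, SE 0.25, limma adjusted p = 0.122), the widest among the members. It was -1.17 (limma adjusted p = 0.0101) without wt replicate 3, -0.61 (limma adjusted p = 0.49) with the array set as a block, and -0.25 within the low set, 3 ko arrays against that 1 wt array. At 4 months it was 0.23 (SE 0.25, limma adjusted p = 0.707), with -0.11 within the low set and 0.40 within the high set, and it was 0.09 without ko replicate 1 and 0.10 without wt replicate 1.

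Batf3 encodes a leucine zipper factor needed for type 1 cells. It was at 533, 504 and 518 in ko spleens at 4 months, against 349, 493 and 338 in wt spleens. In mice of 1 month it was at 317, 316 and 167 in ko, against 385, 346 and 333 in wt. All ko arrays thus lay above all wt arrays at 4 months and below them at 1 month. At 4 months ko stood at 0.39 against wt (log2, SE 0.22, limma adjusted p = 0.401), with 0.54 within the low set and 0.32 within the high set. The value at 1 month was -0.42 (SE 0.22, limma adjusted p = 0.355), with -0.34 within the low set. Without ko replicate 3, the array at 167, it was -0.15 (limma adjusted p = 0.836).

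The change of the genotype difference between the ages was 1.09 for Xcr1 (SE 0.35, unadjusted p = 0.0061, limma adjusted p = 0.376) and 0.81 for Batf3 (SE 0.30, unadjusted p = 0.0172, limma adjusted p = 0.471). Neither passed the threshold. In this contrast 0 of 13 member probe sets were called, beside 0.0481% of all tested, and these 2 were the only members at an unadjusted p under 0.05, beside 8.65% of all tested. Within the low set the change was 0.14 for Xcr1 and 0.87 for Batf3, and without ko replicate 3 at 1 month it was 0.54 (limma adjusted p = 0.692) for Batf3. Red pulp macrophage markers (10 probe sets) had a median genotype difference of 0.12 at 4 months and -0.43 at 1 month. Their median change was 0.46, with 4 of 10 at an unadjusted p under 0.05 and 0 called. The median change was 0.85 for marginal zone macrophage markers, 0.04 for NK cell markers and -0.05 for plasma cell markers. The part of such cells was not tested.

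**Figure D2:**
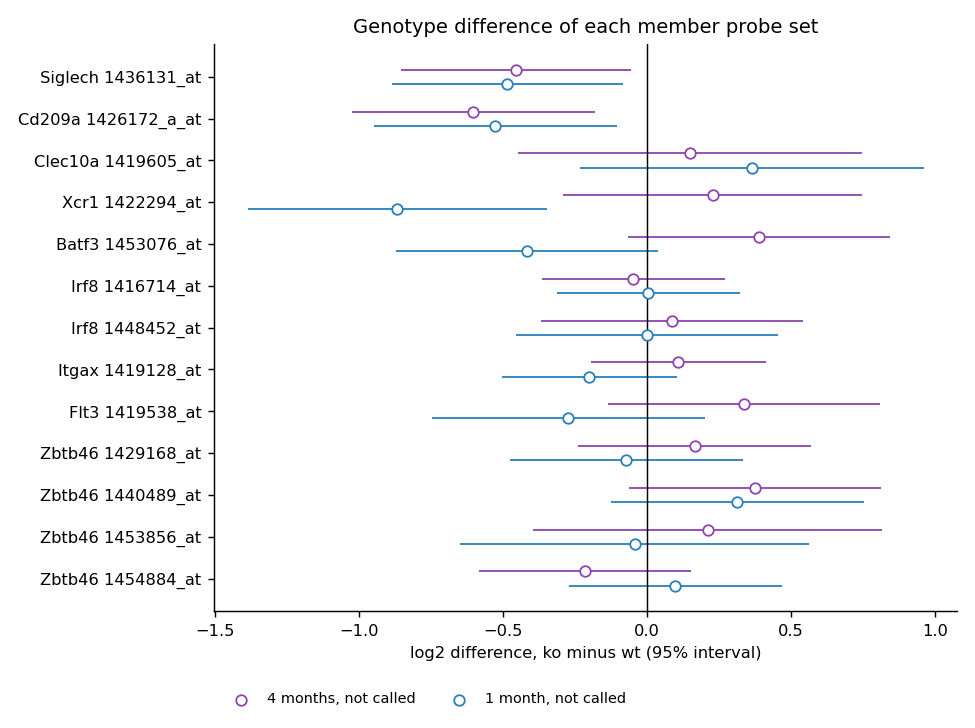
Log2 difference of ko minus wt for the 13 member probe sets at 4 months (purple) and 1 month (blue). Points are limma estimates, bars their 95% intervals, and open points are not called. Cd209a and Siglech lie left of 0 at both ages, while Xcr1 stands at -0.87 at 1 month and 0.23 at 4 months.

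The remaining conventional markers and Irf8 showed no called genotype difference at either age or over both. For Itgax the difference was 0.11 (95% interval -0.20 to 0.41) at 4 months and -0.20 (-0.51 to 0.10) at 1 month. For Flt3 it was 0.34 (-0.14 to 0.81) at 4 months and -0.27 (-0.75 to 0.20) at 1 month. The Irf8 probe set 1416714_at differed by -0.05 (-0.37 to 0.27) at 4 months and 0.01 (-0.31 to 0.32) at 1 month, and 1448452_at by 0.09 (-0.37 to 0.54) and 0.00087 (-0.45 to 0.46). The ko and wt arrays of these 4 probe sets overlapped at both ages. Such intervals do not show equal levels.

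Clec10a, a galactose-binding lectin, was at 139.7, 88.2 and 166 in ko spleens at 4 months, against 166, 85.5 and 96.4 in wt, and at 176, 182 and 128 in ko against 98.8, 106 and 153 in wt at 1 month. The groups overlapped at both ages, close to the filter level. Its difference over both ages was 0.26 (SE 0.20, limma adjusted p = 0.476). The 4 Zbtb46 probe sets disagreed in sign: over both ages they were at 0.34 for 1440489_at (SE 0.15, unadjusted p = 0.0315, limma adjusted p = 0.173), 0.08 for 1453856_at, 0.05 for 1429168_at and -0.06 for 1454884_at. Of these, 1440489_at was at 555, 416 and 384 in ko against 395, 264 and 364 in wt at 4 months, and at 394, 346 and 346 in ko against 355, 217 and 297 in wt at 1 month. Its groups overlapped at both ages.

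**Figure D3:**
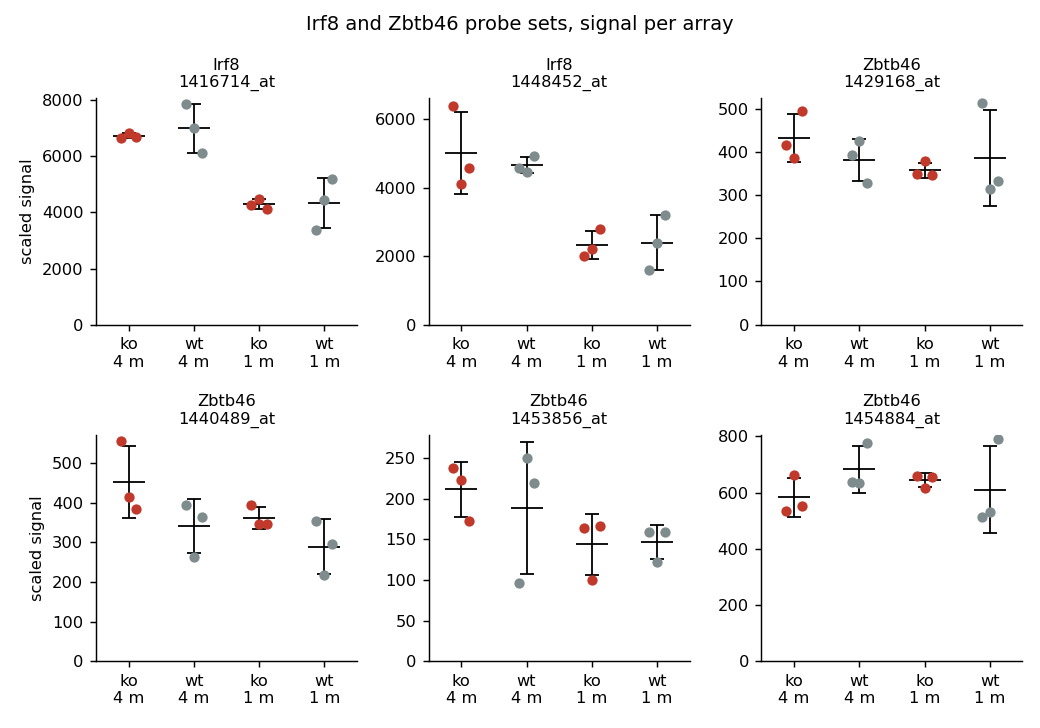
Scaled signal (linear axis from 0) of the 2 Irf8 and 4 Zbtb46 probe sets on each array, ko in red and wt in grey, at 4 months (4 m) and 1 month (1 m), with mean and SD over 3 mice. Both Irf8 probe sets are higher at 4 months in both genotypes, and the ko and wt points overlap in every Zbtb46 panel.

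Age was the wider contrast for these genes. In ko spleens 22.9% of all tested probe sets were called with age, and 13.6% were called higher. Among the 13 member probe sets in ko, 8 were called higher at 4 months than at 1 month and none was called lower. They belong to Xcr1, Flt3, Itgax, Batf3, Siglech, Cd209a and Irf8 (both probe sets). In wt spleens 5 of 13 were called higher and none lower, beside 21.4% called and 11.8% called higher, and these belong to Irf8 (both), Itgax, Siglech and Cd209a. The members' median log2 difference of 4 months over 1 month was 0.65 in ko, beside 0.10 for all tested, and 0.44 in wt, beside 0.09. In ko 10 of the 13 had no overlap between the ages, beside 46.6% of all tested, and in wt 6 of the 13, beside 31.6%.

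Itgax was at 2539, 1956 and 2028 in ko spleens at 4 months, against 933, 958 and 884 in ko at 1 month. In wt it was at 2159.6, 1893 and 1959 at 4 months, against 948, 1056 and 1216 at 1 month. Every array at 4 months lay above every array at 1 month. The rise was 2.29-fold in ko (log2 1.20, SE 0.14, limma adjusted p = 8.63e-05) and 1.85-fold in wt (0.89, SE 0.14, limma adjusted p = 0.000442). Within the low set it was 1.06 in ko and 0.67 in wt, and within the high set 0.99 in wt.

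Flt3 was at 764, 515 and 659.6 in ko spleens at 4 months, against 314, 241 and 208 in ko at 1 month, a rise of 1.24 log2 units (SE 0.22, limma adjusted p = 0.0011). In wt it was at 718, 375 and 457 at 4 months, against 334, 291 and 307 at 1 month. The wt groups did not overlap either, but the difference of 0.63 (SE 0.22) had a limma adjusted p of 0.0538, and 1 array decided its size: it was 0.38 (limma adjusted p = 0.232) without wt replicate 1 at 4 months, the array at 718, and 0.82 (limma adjusted p = 0.023) without wt replicate 2 at 4 months, the array with pancreas transcript.

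Irf8 was at 6651, 6828 and 6688 (1416714_at) in ko spleens at 4 months, against 4255, 4489.7 and 4119 in ko at 1 month. In wt this probe set was at 7843, 6988 and 6115 at 4 months, against 3381, 4448 and 5173 at 1 month. The rise was 0.65 in ko (SE 0.15, limma adjusted p = 0.006) and 0.70 in wt (SE 0.15, limma adjusted p = 0.0039). With each array centred on its median in place of the trimmed mean, the ko value was 0.49 (limma adjusted p = 0.0539). The second probe set, 1448452_at, rose by 1.09 in ko (limma adjusted p = 0.0021) and 1.00 in wt (limma adjusted p = 0.0038).

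Xcr1 rose 2.90-fold in ko (log2 1.54, SE 0.25, limma adjusted p = 0.000508), the widest age difference among the members, and Batf3 rose 1.90-fold in ko (0.93, SE 0.22, limma adjusted p = 0.0057). In wt the same differences were 0.44 for Xcr1 (SE 0.25, limma adjusted p = 0.218) and 0.12 for Batf3 (SE 0.22, limma adjusted p = 0.73), neither called. The test of whether ko and wt differ in this respect is the change of the genotype difference given above, which passed for neither gene. For Xcr1 in wt the value was 1.15 within the low set, 1 array per age, and 0.09 within the high set, 2 arrays per age, and it was 0.14 without wt replicate 3 at 1 month.

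Siglech rose by 0.78 in ko (SE 0.19, limma adjusted p = 0.0075) and 0.75 in wt (SE 0.19, limma adjusted p = 0.0103). Cd209a rose by 0.63 in ko (SE 0.20, limma adjusted p = 0.0321) and 0.70 in wt (SE 0.20, limma adjusted p = 0.0194). The ko call of Cd209a was lost without any 1 of 5 ko arrays, replicates 2 and 3 at 1 month and each replicate at 4 months, with 0.45 (limma adjusted p = 0.155) at the lowest, without replicate 3 at 1 month. It was also lost with quantile normalization (0.46, limma adjusted p = 0.136), with median centring (0.48, limma adjusted p = 0.0985), without a filter (limma adjusted p = 0.0528) and when the array set was a block (limma adjusted p = 0.0711). The wt call was lost without wt replicate 3 at 1 month (0.56, limma adjusted p = 0.0662) or replicates 1 or 3 at 4 months (0.67 and 0.57, limma adjusted p = 0.0543 and 0.0849). Clec10a (-0.27 in ko and -0.05 in wt) and the 4 Zbtb46 probe sets (-0.14 to 0.48 in ko and 0.01 to 0.23 in wt) had no age call.

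**Figure D4:**
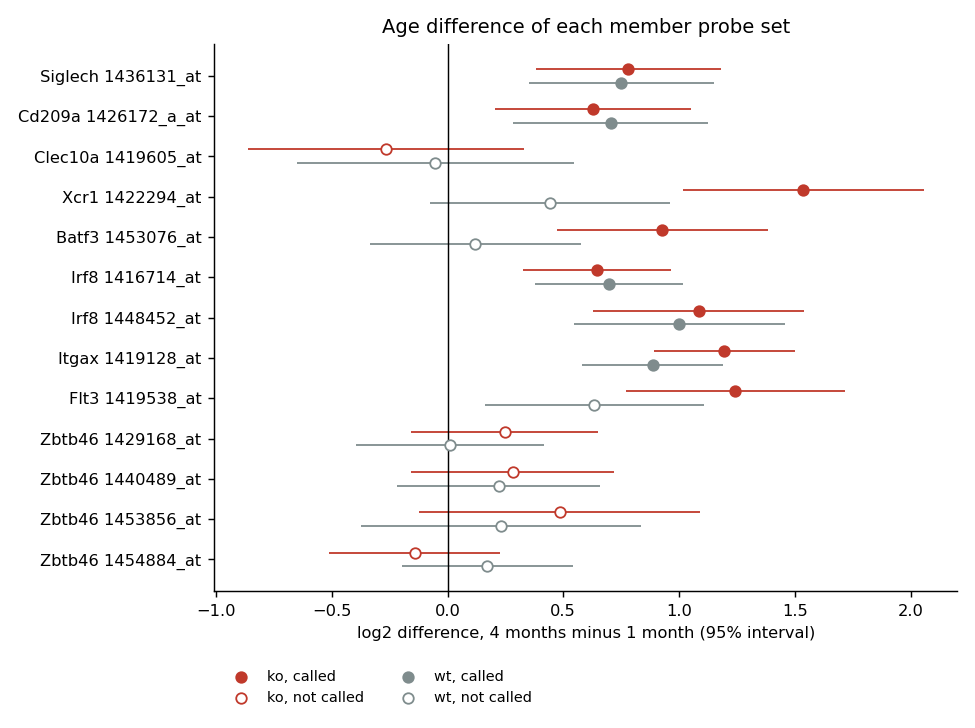
Log2 difference of 4 months minus 1 month for the 13 member probe sets in ko (red) and wt (grey). Points are limma estimates, bars their 95% intervals, and filled points are called. Irf8, Itgax, Siglech and Cd209a are filled in both genotypes, and Xcr1, Batf3 and Flt3 in ko.

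Markers of many other spleen cells moved the same way with age, and their part in the members' rise was not tested. The summed B cell signal was 43527 to 55483 in ko and 52358 to 62256 in wt at 4 months, against 23680.2 to 27409.9 in ko and 33320.4 to 35768 in wt at 1 month. The summed signal of 6 NK cell genes was 5650.4 to 6179.6 in ko and 5887 to 7399 in wt at 4 months, against 2688 to 3502 in ko and 2898 to 3520.4 in wt at 1 month. Of 6 red pulp macrophage genes it was 44395 to 47001 in ko and 40646 to 46500.2 in wt at 4 months, against 20285 to 24661 in ko and 25940.5 to 29965 in wt at 1 month. Neutrophil genes moved the other way, as given above, and 9 of 9 were called lower at 4 months in each genotype.

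A wider list of 62 dendritic cell genes, of which 55 are on the array and 51 (104 probe sets) were tested, was sorted by subset and role. Over both ages 2 probe sets were called higher and 9 lower in ko, 11 of 104 beside the 5.39% of all tested. By role, 5 of 19 probe sets of mature or migratory cells were called lower, with a median of -0.35 for the role. Of the plasmacytoid ones 4 of 31 were called lower, with a median of -0.30 for the role. Of all tested, 2.56% were called lower. In the other roles the median lay near that of all tested, -0.02. It was -0.06 for type 1 genes (1 of 26 called higher) and -0.00053 for type 2 genes (1 of 16 called higher). For growth factors with their receptors it was 0.05 (0 of 12 called). By age, the type 1 median was 0.09 at 4 months and -0.22 at 1 month, beside -0.01 and -0.04 for all tested. The type 2 median was 0.09 and -0.09 in the same order, and that of growth factors with their receptors 0.17 and -0.06.

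Among the mature cell genes, Cd83, a surface glycoprotein of activated dendritic cells and B cells, was at 2762, 2513 and 2786 in ko spleens at 4 months, against 4885, 4217 and 6521 in wt. At 1 month it was at 1869, 1765 and 1151 in ko, against 2226, 2806 and 2543 in wt. No ko array reached the wt range at either age, and over both ages the difference was -0.80 (SE 0.13, 0.57-fold, limma adjusted p = 0.004). Cd86, a ligand for the T cell receptors CD28 and CTLA-4, was lower by both its probe sets, at -0.56 for 1420404_at (SE 0.12, limma adjusted p = 0.0134) and -0.65 for 1449858_at (SE 0.15, limma adjusted p = 0.0252). Cd40, which receives T cell help, was lower by 2 of 3 probe sets, at -0.43 for 1460415_a_at (limma adjusted p = 0.0342) and -0.49 for 1449473_s_at (limma adjusted p = 0.0324), with -0.35 (limma adjusted p = 0.229) for the other. B cells express all of these genes. As given above, their marker sums were lower in ko at 1 month and overlapped between ko and wt at 4 months. Over both ages, 3 of 11 B cell marker probe sets were called lower, with a median of -0.30. The part of B cells in these differences was not tested.

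Among the plasmacytoid genes, those called lower were Ccr9, Ly6d, Tcf4 and Klk1. B cell markers were also lower over both ages, as given above, and the part of B cells in these calls was not tested. Ccr9, a gut-homing chemokine receptor, was at -0.66 (SE 0.15, limma adjusted p = 0.0251). Ly6d, also a marker of early B cells, was at -0.69 (SE 0.17, limma adjusted p = 0.0318). Tcf4, the factor that sets plasmacytoid identity, was at -0.41 (SE 0.10, limma adjusted p = 0.0333). Klk1, a kallikrein, was at -1.36 (SE 0.36, limma adjusted p = 0.0409). For Ccr9 the probe set called was 1427419_x_at, while 1421920_a_at was tested with no call. For Tcf4 the probe set called was 1 of 5 tested, the others ranging between -0.30 and -0.04 with no call. The Ccr9 and Tcf4 probe sets called carry the suffix x, which Affymetrix gives to probes that may match other sequences too. Of 4 tested Klk1 probe sets 1 was called, 1415837_at. It was at 216, 163 and 229 in ko spleens at 4 months, against 368, 3036 and 373 in wt, and its high value stands on the array with pancreas transcript. Without that array the difference over both ages was -0.88 (limma adjusted p = 0.0034), and at 1 month it was at 120.4, 103 and 121 in ko against 244, 270.3 and 246 in wt, with no overlap.

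In the other direction, Snx22, a sorting nexin listed with type 1 cells, was higher in ko over both ages (0.68, SE 0.14, limma adjusted p = 0.0116). It was at 437, 557 and 648 in ko spleens at 4 months, against 181, 284 and 242 in wt, and the groups did not overlap. In mice of 1 month it was at 632, 685 and 829.8 in ko, against 627, 518 and 639 in wt, with an overlap. Clec4a2, an inhibitory lectin receptor of myeloid cells, was higher by 1422013_at (0.49, SE 0.12, limma adjusted p = 0.0339). The widest difference among type 2 genes was its other probe set, 1425406_at, at 0.80 with no call (limma adjusted p = 0.112). Among growth factors and receptors, the widest was Csf2rb, the shared beta chain of the GM-CSF, IL-3 and IL-5 receptors, at 0.48 by 1421326_at with no call (limma adjusted p = 0.0886).

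Of these 11 calls, those of Cd83, Snx22 and 1420404_at of Cd86 held without any 1 array. Those of Ccr9, Ly6d, Tcf4, Klk1, Cd40, Clec4a2 and the other Cd86 probe set were each lost without any 1 of 5 to 9 arrays, the size staying between -1.41 and -0.36 for the lower genes and between 0.41 and 0.53 for Clec4a2 where lost, with limma adjusted p values of up to 0.102. Without ko replicate 3 at 1 month each of these calls was lost.

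**Figure D5:**
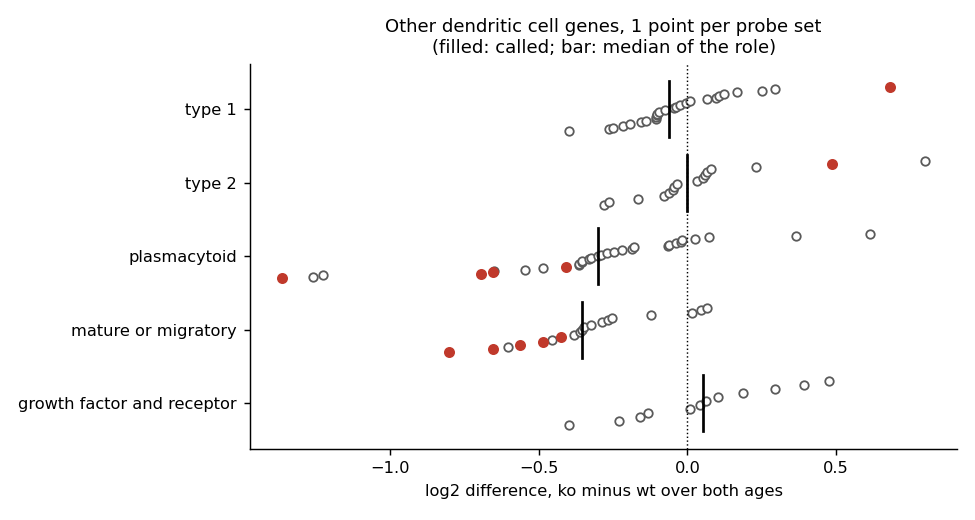
Log2 difference of ko minus wt over both ages for the 104 tested probe sets of the wider list, 1 point each, in rows by role. Filled red points are called, black bars are the medians of the role, and the height within a row follows the rank of the difference. The plasmacytoid and mature or migratory rows have medians of -0.30 and -0.35.

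At 4 months alone 5 of the 104 probe sets were called, beside 2.3% of all tested: Snx22 (1.11) and Irf7, the master factor of type I interferon production (1.03, SE 0.25, limma adjusted p = 0.0413), higher in ko, and Ccr9 (-0.97), Cd83 (-0.92) and Spib, a transcription factor of plasmacytoid cells and B cells (-0.65), lower. The Ccr9 call was again by 1427419_x_at, with no call for 1421920_a_at. Irf7 was at 3064, 1417 and 1859 in ko, against 866, 1068 and 978 in wt, and the groups did not overlap. Its call was lost without any 1 of 6 arrays (ko replicates 1 and 3 and wt replicates 1 and 3 at 4 months, ko replicate 3 and wt replicate 2 at 1 month), and without ko replicate 1 at 4 months the difference was 0.73 (limma adjusted p = 0.197). The calls of Ccr9 (without ko replicates 1, 2 or 3 or wt replicates 1 or 3 at 4 months, limma adjusted p = 0.059 to 0.136), Spib (without ko replicates 2 or 3 or any wt replicate at 4 months, 0.0537 to 0.167), Cd83 (without any ko replicate or wt replicate 3 at 4 months, 0.0534 to 0.0807) and Snx22 (without ko replicate 3 at 4 months, 0.0515) were lost in the same way, each keeping its sign. At 1 month 0 of 104 were called, beside 0.444%, with 21 at an unadjusted p under 0.05, beside 15.8% of all tested. Of these 3 were higher and 18 lower in ko, beside 6.5% of all tested higher and 9.3% lower. Without wt replicate 3 of that age, 8 were called, but the share of all tested probe sets called in that fit was not worked out. The change of the genotype difference between the ages had 0 of 104 called, beside 0.0481% of all tested. At an unadjusted p under 0.05 there were 9, beside 8.65%, so the share of the pooled list was near that of all probe sets. Of these 9, 8 were positive. The type 1 role held 5 of them among its 26 probe sets, all positive, with a median of 0.25 for the role, beside 0.03 for all tested. The plasmacytoid role held 3, growth factors and receptors 1, and the other roles 0.

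With age, 45 of the 104 probe sets were called higher at 4 months and 1 lower in ko, beside 13.6% of all tested called higher and 9.25% lower. In wt 35 were called higher and 7 lower, beside 11.8% higher and 9.67% lower. The list had medians of 0.59 in ko and 0.41 in wt, beside 0.10 and 0.09 for all tested. Higher in both genotypes were, among type 2 genes, Irf4, the factor these cells need (0.77 and 1.12 by its 2 probe sets in ko and 0.81 and 1.01 in wt), Relb (1.25 in ko and 1.08 in wt) and Dtx1, a Notch target (1.46 in ko and 1.18 in wt). Among type 1 genes, Cadm1, an adhesion molecule of these cells, rose by 1.09 in ko and 0.89 in wt (1417376_a_at), Wdfy4, needed for cross-presentation, by 0.94 in ko and 0.55 in wt, and Id2, a factor that type 1 cells need, by 1.05 in ko and 0.83 in wt (1 of its 3 tested probe sets). Ccr7, which guides mature cells to T cell zones, rose by 1.10 in ko and 0.90 in wt. Among plasmacytoid genes, Tlr7, a sensor of single-stranded RNA, rose by 1.11 in ko and 0.75 in wt (1422010_at). Its other tested probe set, 1419848_x_at, reached 100 on only 4 arrays and had no age call in either genotype. Bst2 rose by 0.65 in ko and 0.94 in wt, and Pld4 by 0.78 in ko and 0.80 in wt. Also called higher in both genotypes by at least 1 probe set were Cd8a, Sirpa, Tcf4, Zeb2, Cd40, Cd83, Cd86, Cd274, Csf1, Csf1r and Csf2ra. Clec4a2, Clec7a, Esam, Gcsam, Il15, Pacsin1 and Socs2 were called in ko and Csf2rb, Fscn1 and Spib in wt, without a call of a difference between the genotypes. The 7 probe sets called lower in wt belong to Cd24a, Cd36 and Snx22, and the 1 in ko to Cd24a (-0.88). Cd24a and Cd36 are also made by red cell precursors, whose 7 marker genes summed to 60292 to 69997 in ko and 26205 to 45716 in wt at 4 months, against 80819 to 93387 in ko and 78327 to 98045 in wt at 1 month.

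The genes whose log2 signal followed Siglech most closely over the 12 arrays, out of 22706 probe sets of other single-symbol genes, were Cyld, a deubiquitinase (Pearson r 0.98), Tor3a (0.98) and Gpr183, an oxysterol receptor that positions B cells and dendritic cells in spleen (0.96). For Flt3 they were Btla, an inhibitory receptor of lymphocytes and dendritic cells (0.96), Nav1 (0.96) and Tmcc3 (0.95). The arrays share an age split that both members follow, and these coefficients are a description over 12 arrays.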

How the data were processed

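Total RNA of whole spleen was hybridised to 12 Affymetrix arrays, 1 per mouse. Per the submitters' processing notes, the authors used MAS5, with its version not given in the sources used here, and the deposited intensity is a MAS5 signal, linear and never negative. Each array was scaled here to a 2% trimmed mean of 500, which the deposited values already had. Genes were named from GEO's platform annotation: of 45037 probe sets that are not controls, 34945 have 1 symbol, 932 several and 9160 none. Probe sets at 100 or more on 3 or more arrays were tested (27041) on log2(signal + 32) with limma 3.58.1 in R 4.3.3 (lmFit, eBayes with trend, 1 mean per group over all 12 arrays, 2-sided, Benjamini-Hochberg over all tested). Fold changes are on that scale and understate changes of low signals. The fit was tested on simulated data.

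The mice are separate samples per the labels, and no shared litter or day is given. Same-numbered arrays of different groups had residual correlations of -0.20 to 0.21. Arrays with different numbers were not compared in this way, so these values cannot settle whether the numbers pair samples. The main fit used no pairing. The members and all gene lists were chosen with earlier results of these data known. Of the wider list, genes with a call in any of the 6 contrasts were named, with the widest genotype difference in each role. The number of arrays limits precision, and detection calls were not used here.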

Additional observations from a re-analysis of the deposited data

Results flagged for a closer look

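For Batf3 all 3 ko arrays lay below all 3 wt arrays at 1 month and above all 3 wt arrays at 4 months. The difference at 4 months minus that at 1 month was 0.81 (SE 0.30, unadjusted p = 0.0172, limma adjusted p = 0.471), which did not pass the threshold, and neither age alone was called. Leaving out 1 array gave 0.54 to 0.97 for this change, the lowest without ko replicate 3 at 1 month, where the difference at 1 month was -0.15 (limma adjusted p = 0.836).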

How the results depend on the processing

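The counts and named genes were recomputed under 22 planned settings, and within the low and the high array set alone, which was added after seeing the data. The low set held 1 wt array per age and 1 ko array at 4 months, and the high set held no ko array at 1 month. Shares of all tested probe sets called were not worked out for these settings. Of 1814 member values compared, under the planned settings and within the low and high sets, 100 changed sign, none of them called. Centring on the array median moved the median of all tested by 0.157 for ko against wt at 1 month, by -0.131 for the change between ages and by -0.151 for age in ko, and quantile normalization by -0.103 for age in ko.

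For members over both ages, where 1 was called, the count was 0 with median centring, without a filter, without a trend, with the array set as a block and within the low set, and 2 with a filter at 200 and with an adjusted p under 0.10. For age in wt (5) it was 3 with only the arrays compared, 0 within the low set and 3 within the high set, and for age in ko (8) it was 4 within the low set. Leaving out 1 array gave 0 to 1 at 1 month (1 without wt replicate 3, Xcr1), 0 at 4 months, 0 to 3 over both ages (3 without wt replicate 3 at 1 month), 0 for the change between ages, 4 to 6 for age in wt and 7 to 8 for age in ko. For the wider list the count at 1 month (0) was 1 with quantile normalization and 3 with an adjusted p under 0.10. At 4 months (5) it was 1 without a trend, 3 with only the arrays compared, 0 and 1 within the low and high sets and 10 with an adjusted p under 0.10. Over both ages (11) it was 6 with median centring, 3 without a trend, 7 with the array set block, 1 within the low set and 22 with an adjusted p under 0.10. Within the low set it was 7 for age in wt (42) and 24 for age in ko (46). Leaving out 1 array gave 0 to 8 at 1 month, 0 to 5 at 4 months, 3 to 18 over both ages (18 without wt replicate 3 at 1 month), 0 for the change between ages, 31 to 42 for age in wt and 39 to 48 for age in ko.

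With the replicate number as a block, the members' counts were 0 at 1 month, 0 at 4 months, 1 over both ages (Cd209a, limma adjusted p = 0.0379), 0 for the change between ages, 6 for age in wt and 8 for age in ko, so the block added 1 call, Flt3 with age in wt (limma adjusted p = 0.0254). Those of the wider list were 0, 4, 11, 0, 41 and 47 in the same order.

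The uncalled values that changed sign by more than the replicate spread did so mostly within the low set. There Irf8 1416714_at was at -0.27 at 1 month, 0.16 at 4 months and 0.43 for the change between ages, and Irf8 1448452_at at -0.46, at -0.26 and, over both ages, at -0.36. Zbtb46 1454884_at was at -0.15 at 1 month with the array set block and -0.28 within the low set, at 0.0605 for the change between ages within the low set, and at 0.11 for age in ko with the array set block. Siglech 1436131_at was at -0.27 for the change between ages within the low set. The called fall of Cd36 1450883_a_at with age in wt was 0.0075 within the low set, with 1 array per age. The cause of these differences was not tested.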
